A study of Ovis aries with 16 samples.

Results

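Inflammatory cytokines and chemokines are the signalling proteins by which injured or infected tissue raises the alarm. The 10 genes described here were IL1A, IL1B, IL1RN, IL18, IL6, TNF, CXCL8, CXCL1, CXCL10 and IL10, measured in the hypothalamus of fetal sheep. Every non-control probe that the array's annotation assigns to one of these genes, under its current symbol or an older name (IL-1B, IL8 and GRO), was taken: 16 probes of the 15008 distinct probes on the array, and 10 of its 1016 named genes. IL1A, CXCL8, CXCL1 and IL10 each had 2 probes and IL18 had 3, and the other 5 genes had 1 each.

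The study asked how a brief loss of cerebral blood flow and a raised estradiol level act, alone and together, on the hypothalamus of a late-gestation fetus. All 16 fetuses carried chronically implanted catheters, were 124 to 128 days into gestation (term 147 days), and gave serial blood samples. The estradiol+BCO fetuses received 250 µg of estradiol per day for 5 days and then a 10 min occlusion of the brachiocephalic artery (BCO), which in sheep feeds the vessels of the head. The BCO fetuses had the same occlusion with no estradiol, the estradiol fetuses had the hormone and a sham occlusion, and the control fetuses had a sham occlusion with no treatment. Each group had 4 fetuses, 1 array per fetus, and the brain was collected 1 h from when the occlusion or sham began, so every value is from a single early time. The labels used here do not give the sex of the fetuses.

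In brain, these genes are known mainly from microglia, the resident macrophages, and from endothelial cells and astrocytes. Interleukin 1 alpha and beta (IL1A, IL1B) and TNF act through their receptors on NF-kappa B, a transcription factor that in turn induces CXCL8, IL6, adhesion molecules and its own inhibitor NFKBIA. CXCL8 and CXCL1 attract neutrophils, CXCL10 is induced by interferons and attracts T cells, IL1RN blocks the interleukin 1 receptor, and IL10 restrains inflammation. IL18 is a relative of IL1B that, like it, is activated by cleavage by caspase 1.

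The probes themselves set how far each gene can be read, and those that matter for this are shown here as the array's annotation gives them, 5′ to 3′. The IL1A probes lie 136 bases apart on 1 transcript and share no stretch longer than 5 bases, so they are separate readings of the same RNA.
IL1A A_70_P051176: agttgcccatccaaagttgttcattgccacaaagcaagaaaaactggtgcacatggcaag
IL1A A_70_P051177: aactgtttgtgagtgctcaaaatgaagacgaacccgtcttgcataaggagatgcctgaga
The CXCL1 probes differ by a shift of 1 base and share 59 bases, shown in capitals, so they are close to being the same probe.
CXCL1 A_70_P039396: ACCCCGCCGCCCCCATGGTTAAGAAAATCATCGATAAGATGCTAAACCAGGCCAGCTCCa
CXCL1 A_70_P039397: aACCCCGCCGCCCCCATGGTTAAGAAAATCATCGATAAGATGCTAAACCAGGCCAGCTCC

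The CXCL8 pair, the IL10 pair and a pair of the IL18 probes each overlap by 20 bases. The IL18 overlap is in capitals below, and only the shared stretch is shown for CXCL8 and IL10.
IL18 A_70_P050911: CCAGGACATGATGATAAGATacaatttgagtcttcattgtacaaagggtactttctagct
IL18 A_70_P050912: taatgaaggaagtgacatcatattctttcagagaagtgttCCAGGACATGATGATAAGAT
CXCL8 shared: CTTGCCCTTATTATGCAATG
IL10 shared: GAAGCAACTCAATTCCTCTG
The TNF probe holds, in its bases 31 to 60, the letters AATAAA (capitals), which are also those of the usual polyadenylation signal, and an A-rich end.
TNF A_70_P030271: agaAATAAAgtgtcctgagaaaagaaaaaa
The single IL1RN probe is shown because it was well above background on 5 of 16 arrays, so that many of its values are bounds.
IL1RN A_70_P008196: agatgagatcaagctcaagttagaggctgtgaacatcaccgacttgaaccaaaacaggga

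Signal is given on a log2 scale relative to each array's own 75th percentile, so 0 is the level of a fairly bright probe and each step of 1 is a doubling. That percentile lay between 2021 and 2904 intensity units, and 77.27% to 86.41% of probes per array were well above background, the scanner software's detection call. Of the 16 probes, 15 were well above background on at least 4 arrays and were tested, so all 10 genes had a tested probe. The third IL18 probe (A_70_P041761) was well above background on 1 array, ran apart from the other IL18 probes (Pearson r 0 and 0.05) and was not tested. The arrays lay on 2 slides with 2 arrays of each group on each, and 858 of the 12937 tested probes differed between slides, so differences of the members are also given within slide 1 and slide 2, in that order. The neuropeptide genes SST, OXT, NPY and POMC and the astrocyte genes GFAP and AQP4 were well above background on all 16 arrays, while the leukocyte gene CD4 and the pituitary gene POU1F1 were on 0.

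No probe of the 10 genes passed an adjusted p of 0.05 in any of the 7 comparisons (limma, Benjamini-Hochberg over 12937 probes). Over the whole array 1 probe passed for estradiol+BCO against estradiol, 1 for the interaction, and 0 in each of the others, which are shares of 0.00773%, 0.00773% and 0%. At an unadjusted p of 0.05, the count of member probes was 1 of 15 in BCO against control (7.17% of all probes), 1 in estradiol+BCO against estradiol (7.73%), 0 in estradiol against control (3.28%) and 3 in estradiol+BCO against BCO (9.45%). What some of the genes did show was a wide spread between fetuses of the same group. CXCL8 and IL1A ran together over the arrays. CXCL10 and IL1RN were both highest in 1 fetus, estradiol+BCO fetus 1, and their likeness rests largely on it. IL1RN was well above background on only 5 of 16 arrays. In bulk tissue, a change in the number of cells of a type and a change in RNA per cell cannot be told apart.

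**Figure D1:**
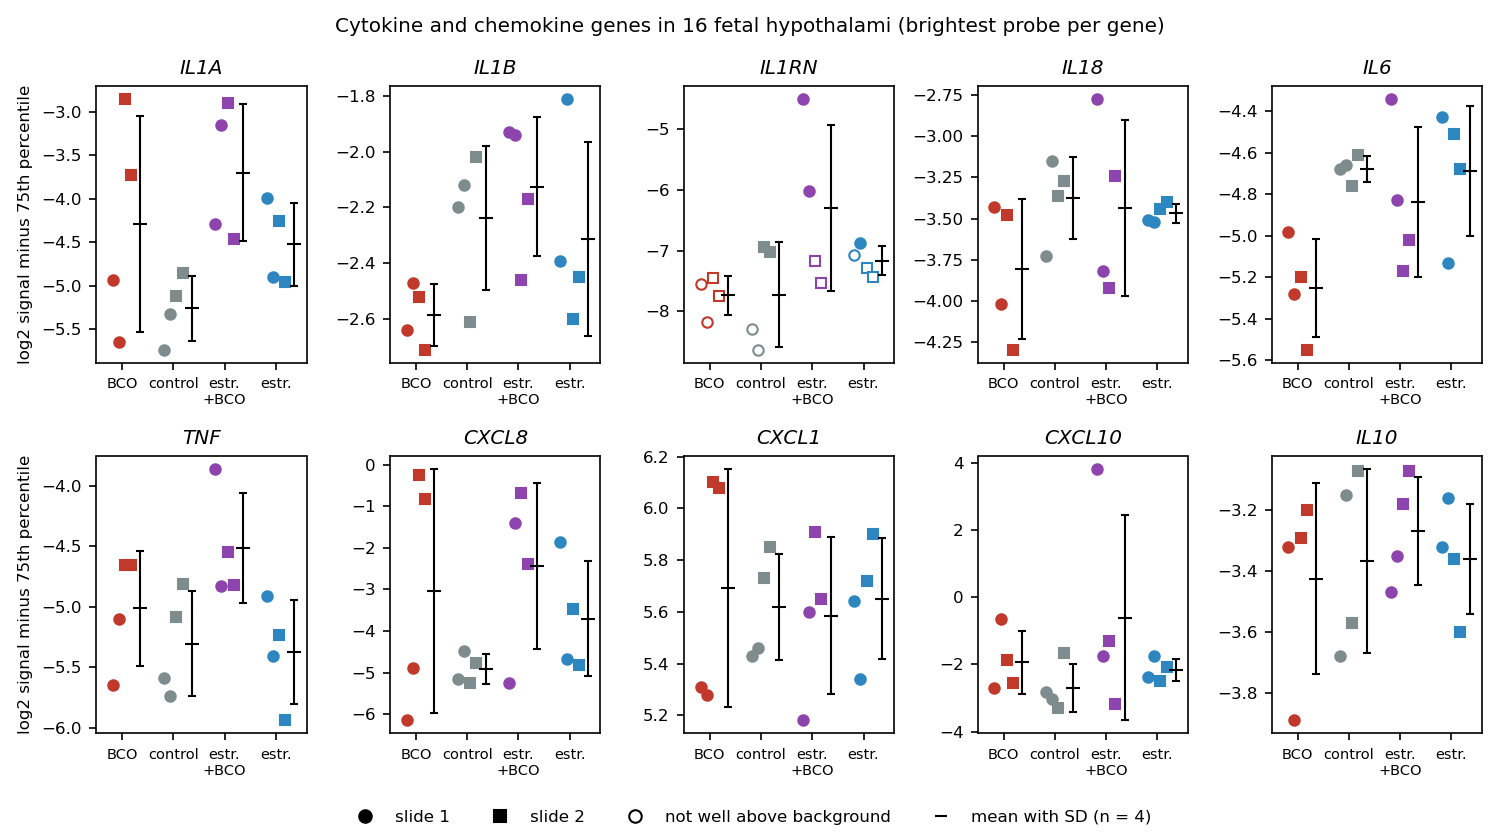
Signal of each gene's brightest probe in every fetus, on a log2 scale relative to the array's 75th percentile, with a separate vertical scale for each gene. Circles are slide 1 and squares slide 2, open points were not well above background, and black bars give the mean with SD (n = 4). BCO points for IL6 all lie below the control points, CXCL8 splits into high and low fetuses, and CXCL10 has 1 estradiol+BCO fetus at 3.83.

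CXCL8, the neutrophil attractant, varied more than almost any gene on the array. With its brighter probe (A_70_P039662), the BCO fetuses measured -6.15, -4.90, -0.26 and -0.83, against -5.16, -4.48, -5.24 and -4.76 in control fetuses. In signal units these were 32.4, 77.7, 1940 and 1310 in BCO fetuses, against 57.7, 90.7, 76.6 and 87.7 in control fetuses. BCO fetuses 3 and 4 were therefore far above every control fetus, and BCO fetus 1 was the lowest of all 16, with BCO fetus 2 inside the control range.

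Estradiol+BCO fetuses gave -5.25, -1.41, -0.69 and -2.39 for the same CXCL8 probe, against -1.85, -4.67, -3.46 and -4.82 in estradiol fetuses. Estradiol+BCO fetus 1 was low and the other 3 were high, while estradiol fetuses 1 and 3 lay above all control fetuses without any occlusion. All 4 control fetuses were low. The range over 16 arrays was 5.90 on the log2 scale, and the SD within groups stood at the 99.7 percentile of all tested probes, whose median SD was 0.25.

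The mean log2 difference in CXCL8 was 1.87 ± 1.24 (SE) for BCO against control (adjusted p = 0.824) and 1.27 ± 1.24 for estradiol+BCO against estradiol (adjusted p = 0.858). Within slides the BCO difference was -0.71 on slide 1 and 4.46 on slide 2, so its direction turned between slides, and for estradiol+BCO against estradiol it was -0.07 and 2.60. The first difference was 0.95 without BCO fetus 3 and 2.91 without BCO fetus 1, and the second was 0.68 without estradiol+BCO fetus 3 and 2.20 without estradiol+BCO fetus 1. The dimmer probe (A_70_P039661) was well above background on 9 arrays, those of BCO fetuses 3 and 4, estradiol+BCO fetuses 2, 3 and 4, estradiol fetuses 1, 2 and 3 and control fetus 4. Its values on the other arrays lie at background, so its differences are not given as sizes.

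IL1A, an alarm cytokine released by damaged cells, followed CXCL8 from fetus to fetus. Its brighter probe (A_70_P051176) read -4.94, -5.65, -2.85 and -3.73 in BCO fetuses, against -5.74, -5.33, -5.12 and -4.85 in control fetuses. Estradiol+BCO fetuses had -4.29, -3.15, -2.90 and -4.46, against -3.99, -4.90, -4.26 and -4.96 in estradiol fetuses. BCO fetuses 3 and 4 and estradiol+BCO fetuses 2 and 3 were the 4 highest, as they were for CXCL8, and the groups overlapped in both pairs.

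The IL1A difference was 0.97 ± 0.52 for BCO against control (adjusted p = 0.751), with 0.24 and 1.70 within slides. It was 0.49 without BCO fetus 3 and 0.55 with normexp background correction. For estradiol+BCO against estradiol it was 0.83 ± 0.52 (adjusted p = 0.741), with 0.72 and 0.93 within slides and 0.45 with normexp. Averaged over estradiol, 8 occluded against 8 sham fetuses, it was 0.90 ± 0.37 (unadjusted p = 0.0289, adjusted p = 0.604 by limma), with 0.48 and 1.31 within slides. The second IL1A probe gave 0.89 ± 0.35 (unadjusted p = 0.0230, adjusted p = 0.576), with 0.69 and 1.10 within slides. In this averaged comparison 4 of 15 member probes had an unadjusted p under 0.05, against 7.60% of all probes. They were both IL1A probes, TNF, which was higher, and IL6, which was lower. The IL1A probes read the same RNA, and by the brightest probe of each gene the count was 3 of 10. The members were chosen with earlier results of these data known, so these counts are not a test of an excess. TNF had 0.58 ± 0.21 (unadjusted p = 0.0158, adjusted p = 0.551 by limma), with 0.56 and 0.60 within slides. IL6 had -0.37 ± 0.13 (unadjusted p = 0.0140, adjusted p = 0.543 by limma), with -0.13 and -0.60 within slides. The IL1A probes correlated at r = 0.95 over 16 arrays, and with normexp background correction the averaged difference was 0.50 for the brighter and 0.30 for the second.

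Across the 16 arrays, CXCL8 and IL1A correlated at Pearson r = 0.87 (Spearman 0.77, and r = 0.79 without the 2 arrays farthest from the CXCL8 median), as a description over arrays that share scaling and slides. Among 1268 named-gene probes, those most like CXCL8 were NFKBIA, the NF-kappa B inhibitor that NF-kappa B itself induces, CCN1, a matrix protein gene, and ICAM1, a leukocyte adhesion molecule of endothelium. Each had r = 0.95 with CXCL8, and 0.92, 0.93 and 0.92 without the 2 farthest arrays, where the median over the 1268 was 0 and the 95th percentile 0.52. The same 3 genes were the most like IL1A, at 0.93 for ICAM1, 0.89 for NFKBIA and 0.87 for CCN1.

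**Figure D2:**
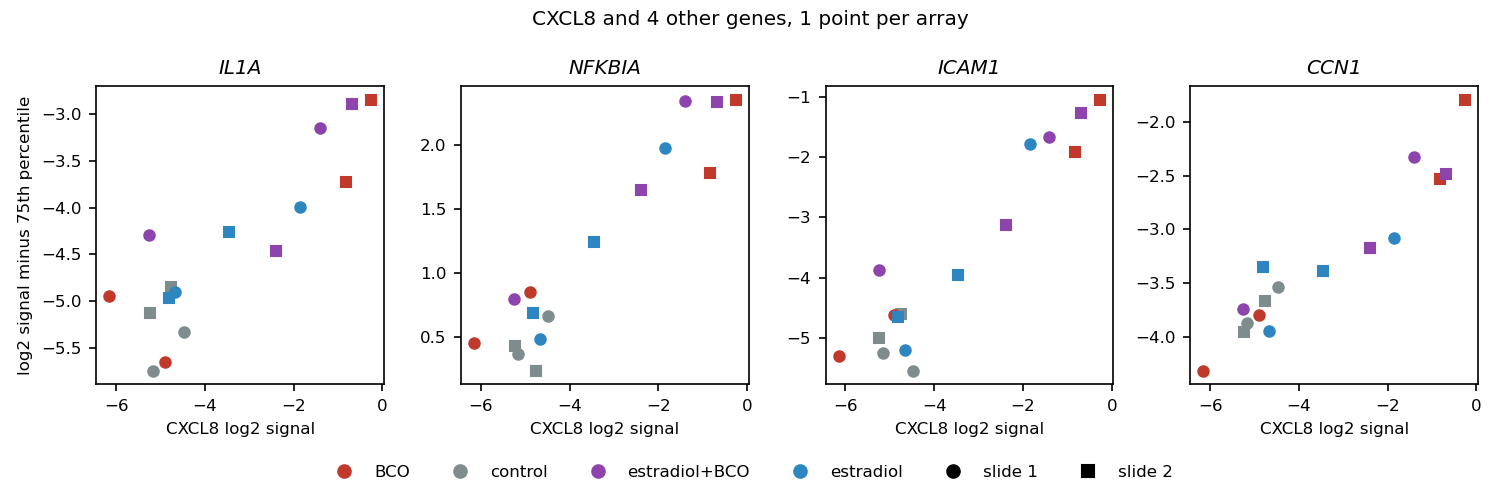
Log2 signal of IL1A, NFKBIA, ICAM1 and CCN1 on the vertical axes against CXCL8 on the horizontal axis, each relative to the array's 75th percentile, with 1 point per fetus (colour for group, circles for slide 1 and squares for slide 2). The control fetuses sit together at the low end, and BCO fetuses 3 and 4 and estradiol+BCO fetuses 2 and 3 at the high end (CXCL8 from -1.41 to -0.26).

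ICAM1 itself ran from -5.29 to -1.05 in BCO fetuses, against -5.54 to -4.60 in control fetuses, and from -3.87 to -1.28 in estradiol+BCO fetuses, against -5.19 to -1.78 in estradiol fetuses. NFKBIA ran from 0.46 to 2.35 in BCO fetuses, against 0.24 to 0.67 in control fetuses, and from 0.80 to 2.34 in estradiol+BCO fetuses, against 0.49 to 1.97 in estradiol fetuses. The high CXCL8 fetuses were thus high for these genes too, including estradiol fetus 1, with ICAM1 at -1.78 and NFKBIA at 1.97.

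CXCL1, which acts on the same receptor family as CXCL8, showed none of this range. Its brighter probe read 5.31, 5.28, 6.10 and 6.08 in BCO fetuses, against 5.43, 5.46, 5.73 and 5.85 in control fetuses. Differences between groups were 0.07 ± 0.21 for BCO against control and -0.06 ± 0.21 for estradiol+BCO against estradiol (adjusted p = 0.999 and 0.987), with -0.15 and 0.30 and then -0.10 and -0.03 within slides. Both CXCL1 probes were 0.46 higher on slide 2 than on slide 1 (adjusted p = 0.00570 and 0.00356), and of the 15 tested member probes they were the only ones to differ between slides. Genes of the CXCL1 family are near-identical paralogs, so which of them this signal comes from is uncertain.

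CXCL10, the interferon-induced chemokine, was high in 1 fetus. Estradiol+BCO fetuses measured 3.83, -1.76, -1.30 and -3.19, against -2.36, -1.76, -2.50 and -2.07 in estradiol fetuses, and the first was at 35200 units where the other 3 were between 254 and 952. BCO fetuses had -2.70, -0.64, -1.87 and -2.54, against -2.83, -3.03, -3.30 and -1.67 in control fetuses. Apart from estradiol+BCO fetus 1, the 4 groups overlapped.

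For CXCL10 the difference was 1.57 ± 1.08 for estradiol+BCO against estradiol (adjusted p = 0.764) and 0.09 without estradiol+BCO fetus 1, and within slides it was 3.10 and 0.04. For BCO against control it was 0.77 ± 1.08 (adjusted p = 0.971), with 1.26 and 0.28 within slides. The 5 spots of this probe had an SD of 0.04 to 1.00 on an array (median 0.09), and 1 spot on the array of BCO fetus 3 was left out for the scanner's outlier call.

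IL1RN, the receptor antagonist, was highest in the same fetus. It read -4.49, -6.02, -7.17 and -7.53 in estradiol+BCO fetuses, against -7.55, -8.18, -7.46 and -7.75 in BCO fetuses. Control fetuses had -8.29, -8.64, -6.94 and -7.03, so control fetuses 3 and 4 lay above estradiol+BCO fetuses 3 and 4. The detection call was met on 2 of 4 estradiol+BCO arrays, 0 of 4 BCO arrays, 2 of 4 control arrays and 1 of 4 estradiol arrays. For estradiol+BCO against BCO the fitted difference was 1.43 ± 0.55 (adjusted p = 0.420), with 2.61 and 0.25 within slides. It was 0.83 without estradiol+BCO fetus 1 and 0.35 with normexp background correction. The detection limit of each BCO array was taken as the higher of its dimmest detected probe and the IL1RN probe itself. Set against this limit, the estradiol+BCO mean was 1.96-fold higher, and 1.29-fold higher without estradiol+BCO fetus 1. That mean includes 2 arrays on which IL1RN was itself not well above background, so neither value is a lower bound. Against estradiol fetuses, which measured -7.07, -6.88, -7.29 and -7.43, the difference was 0.86 ± 0.55 (adjusted p = 0.741), with 1.72 and 0.01 within slides, 0.26 without that fetus and 0 with normexp.

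CXCL10 and IL1RN correlated at Pearson r = 0.74 over the 16 arrays (Spearman 0.45, and r = 0.51 without the 2 farthest arrays). Among the genes most like CXCL10 were PSME2 and PSMB8, interferon-induced proteasome subunits, both at r = 0.89. These were 0.15 and 0.36 without the 2 arrays farthest from the CXCL10 median, so the likeness rests on those arrays. The genes most like IL1RN were LOC100101238 (annotated as regakine 1-like, a chemokine), ISG15 and MX2, the last 2 of them classical interferon-induced antiviral genes, at r = 0.87, 0.86 and 0.84 (0.55, 0.41 and 0.46 without the 2 farthest). In estradiol+BCO fetus 1, ISG15 reached 7.14 where no other fetus of any group passed 1.96, MX2 reached 4.46 and PSME2 4.24.

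**Figure D3:**
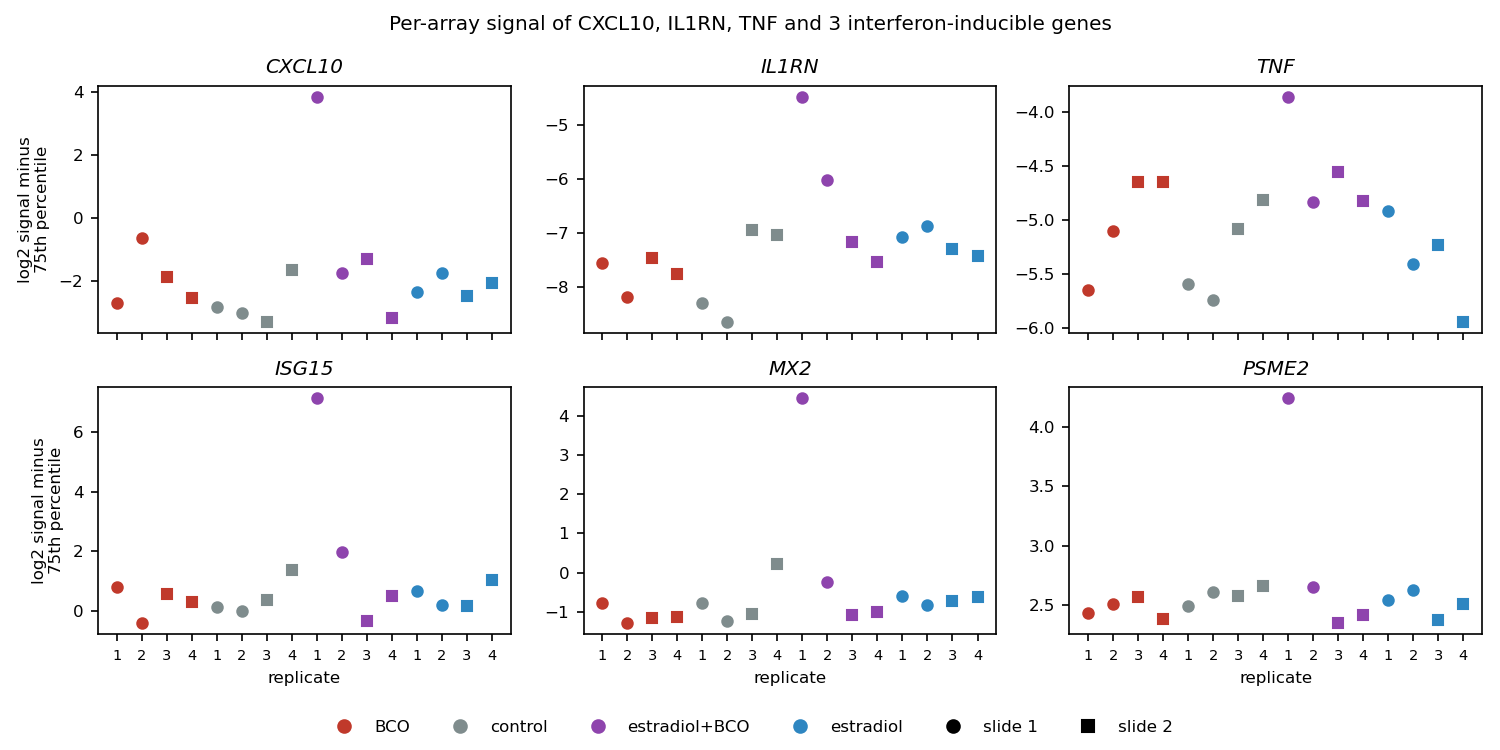
Log2 signal of CXCL10, IL1RN, TNF, ISG15, MX2 and PSME2 in each of the 16 fetuses, relative to the array's 75th percentile, with group by colour, slide by shape and a separate vertical scale per gene. Estradiol+BCO fetus 1 is the highest point in all 6 panels, with CXCL10 at 3.83 and ISG15 at 7.14.

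TNF, which drives NF-kappa B signalling and fever, was higher in all 4 estradiol+BCO fetuses than in any estradiol fetus. The values were -3.86, -4.83, -4.55 and -4.82 in estradiol+BCO fetuses, against -4.91, -5.41, -5.23 and -5.94 in estradiol fetuses. Of the 15 member probes it was the 1 whose groups did not overlap in this comparison, as was so for 5.04% of all tested probes. The difference was 0.86 ± 0.30 (unadjusted p = 0.0119, adjusted p = 0.499), with 0.82 and 0.91 within slides, 0.64 without estradiol+BCO fetus 1 and 0.31 with normexp background correction.

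For BCO against control, TNF measured -5.65, -5.10, -4.65 and -4.65 in BCO fetuses, against -5.59, -5.74, -5.08 and -4.81 in control fetuses. These overlapped, with a difference of 0.30 ± 0.30 (adjusted p = 0.929) and 0.30 within each slide. The interaction, the occlusion difference with estradiol minus that without, was 0.57 ± 0.42 (adjusted p = 0.867), with 0.52 and 0.61 within slides and 0.23 with normexp. Its likest genes were FLT3LG, a growth factor of dendritic cells, OVAR, annotated as an MHC class I antigen, and CREM, a cAMP-responsive transcription factor (r = 0.81, 0.71 and 0.68).

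IL6, a cytokine of the acute-phase response that can also stimulate the stress axis, was lower in all BCO fetuses than in any control fetus. It read -4.98, -5.28, -5.20 and -5.55 in BCO fetuses, against -4.68, -4.66, -4.76 and -4.61 in control fetuses, in units 49.5 to 73.2 against 79.9 to 107. The difference was -0.58 ± 0.18 (unadjusted p = 0.00743, adjusted p = 0.489), -0.46 and -0.69 within slides, and -0.25 with normexp background correction. It was the 1 member probe of 15 whose groups did not overlap here, against 4.03% of all tested probes.

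Estradiol+BCO fetuses had IL6 at -4.34, -4.83, -5.17 and -5.02, against -4.43, -5.13, -4.51 and -4.68 in estradiol fetuses, which overlapped (-0.16 ± 0.18, adjusted p = 0.895). Within slides this difference turned, at 0.19 and -0.50. Against BCO fetuses, IL6 was 0.41 ± 0.18 higher in estradiol+BCO fetuses (unadjusted p = 0.0425, adjusted p = 0.506 by limma), with 0.54 and 0.28 within slides. With IL1B and IL1RN, it was 1 of the 3 member probes with an unadjusted p under 0.05 in that comparison. The interaction was 0.42 ± 0.26 (adjusted p = 0.815), with 0.65 and 0.19 within slides and 0.13 with normexp. The summed signal of 11 hypothalamic neuropeptide genes also separated BCO from control fetuses, at 7.20 to 16.8 times the 75th percentile in BCO fetuses against 22.6 to 37.3 in control fetuses, and its part in the IL6 difference was not tested. Probes most like IL6 were EM4C, LOC443430 and EM4e (r = 0.78, 0.78 and 0.75), names given by the annotation alone.

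IL1B, the interleukin 1 that needs cleavage to act, had small differences between groups. The BCO fetuses measured -2.64, -2.47, -2.52 and -2.71, against -2.20, -2.12, -2.61 and -2.02 in control fetuses, where control fetus 3 lay among the BCO values (-0.35 ± 0.18, adjusted p = 0.725, -0.40 and -0.30 within slides). Estradiol+BCO fetuses had -1.93, -1.94, -2.46 and -2.17, all above the BCO fetuses by a narrow margin. That difference was 0.46 ± 0.18 (unadjusted p = 0.0215, adjusted p = 0.430, 0.62 and 0.30 within slides), and IL1B was the 1 member probe of 15 whose groups did not overlap in it, against 4.24% of all tested probes. Against estradiol fetuses (-2.39, -1.81, -2.60 and -2.45) the difference was 0.19 ± 0.18 (adjusted p = 0.855), with 0.16 and 0.21 within slides. The galanin probe A_70_P001471 ran most like IL1B after CAPN3, a calpain (r = 0.75 and 0.77). Galanin, a neuropeptide, measured -4.29 to -2.83 in BCO fetuses against -1.49 to -0.14 in control fetuses. That difference was -2.76 ± 0.56 and did not pass (adjusted p = 0.466 by limma). Groups did not overlap for 4.03% of all tested probes in that comparison.

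IL18, an inflammasome product, and IL10, the anti-inflammatory member, overlapped between groups in both occlusion comparisons. IL18 (A_70_P050911) ran from -4.30 to -3.43 in BCO fetuses, against -3.73 to -3.15 in control fetuses, and from -3.92 to -2.77 in estradiol+BCO fetuses, against -3.52 to -3.40 in estradiol fetuses. The differences were -0.43 ± 0.25 and 0.03 ± 0.25 (adjusted p = 0.782 and 0.991), with -0.28 and -0.57 and then 0.22 and -0.16 within slides. The other tested IL18 probe (A_70_P050912) gave -0.21 ± 0.21 and 0.11 ± 0.21 (adjusted p = 0.933 and 0.961 by limma). Within slides these were 0.02 and -0.43, and then 0.06 and 0.15. IL18 was most like CTSS, CD14 and CD86, genes known from microglia and other myeloid cells (r = 0.85, 0.82 and 0.82, and 0.65, 0.63 and 0.47 without the 2 arrays farthest from the IL18 median). IL10 (A_70_P030056) ran from -3.89 to -3.20 in BCO fetuses, against -3.68 to -3.07 in control fetuses, and its differences were -0.06 ± 0.17 and, with estradiol, 0.09 ± 0.17 (adjusted p = 0.999 and 0.958). Within slides these were -0.19 and 0.07, and then -0.17 and 0.35, so both turned. The second IL10 probe (A_70_P030057) gave 0.02 ± 0.20 and -0.06 ± 0.20.

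**Figure D4:**
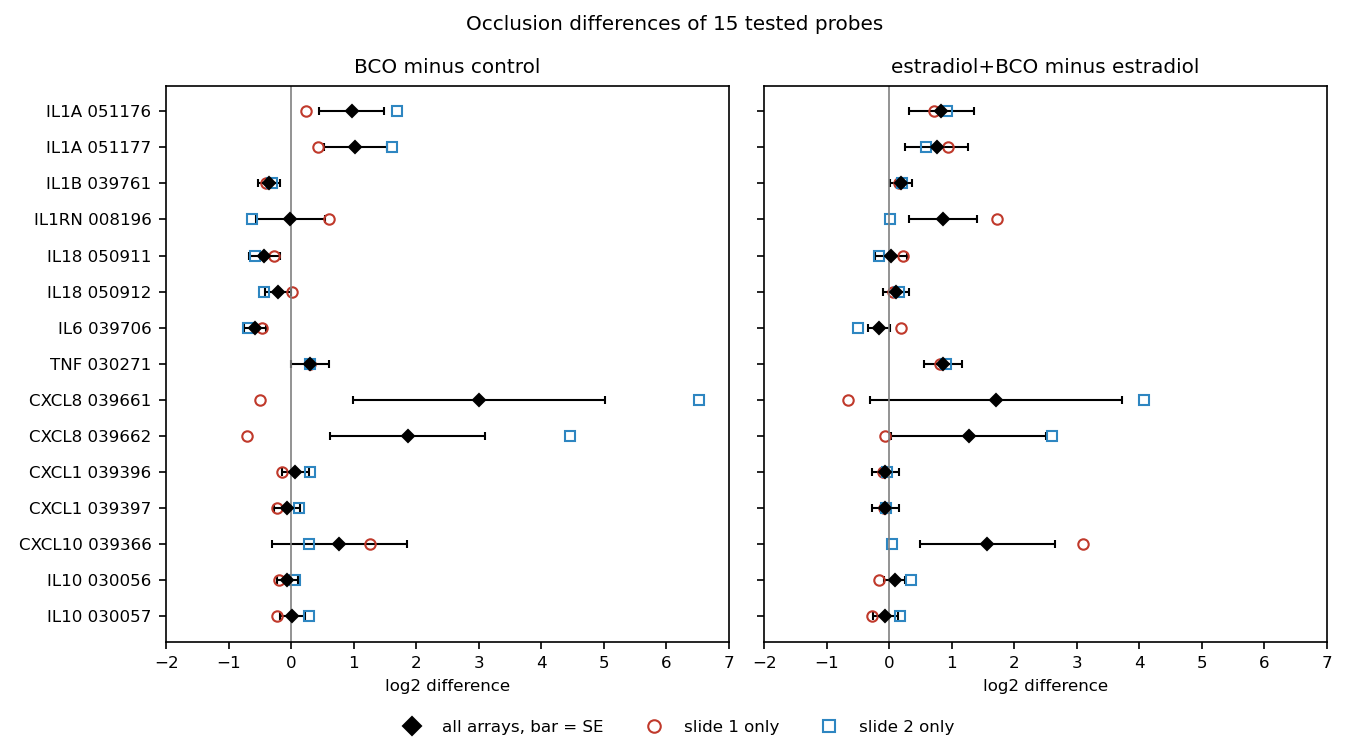
Log2 difference of each of the 15 tested probes for BCO minus control on the left and estradiol+BCO minus estradiol on the right. Diamonds use all arrays with bars of 1 SE, and open circles and squares are the differences within slide 1 and slide 2. TNF in estradiol-treated fetuses has nearly the same value on both slides (0.82 and 0.91), while CXCL8 runs from -0.71 to 4.46 between slides for BCO minus control. Points of the dimmer CXCL8 probe and of IL1RN rest in part on arrays at background.

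Counted by the brightest probe of each gene, 5 of the 10 had a higher and 5 a lower mean in BCO than in control fetuses, where 51.9% of all probes were higher (median difference 0.03, against 0.01 over all probes). In estradiol+BCO against estradiol fetuses 8 were higher and 2 lower, where 48.4% of all probes were higher (median 0.51, against -0.01). The 8 included CXCL10 and IL1RN, whose means rest on estradiol+BCO fetus 1, and IL18 at 0.03, which was also highest in that fetus. Within slides, that median was 0.21 and 0.12.

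Estradiol without occlusion was set against control to show the hormone's own difference. In estradiol against control fetuses 6 were higher and 4 lower (48.6% of all probes higher, median 0.02, against -0.01 over all probes). The groups did not overlap for 0 of 15 member probes, against 3.13% of all, and CXCL8 had a difference of 1.21 ± 1.24 (adjusted p = 1, with 1.56 and 0.86 within slides) that was 0.59 without estradiol fetus 1. IL1A had 0.73 ± 0.52 (adjusted p = 1, with 1.09 and 0.38 within slides and 0.48 with normexp). In estradiol+BCO against BCO fetuses 9 were higher and 1 lower, where 46.5% of all probes were higher, with a median of 0.48 that was 0.82 on slide 1 and 0.04 on slide 2. The estradiol+BCO and estradiol comparisons share groups with the occlusion comparisons, so their counts are not separate evidence. Averaged over occlusion, 2 of 15 member probes had an unadjusted p under 0.05 for estradiol (5.58% of all probes). IL1RN was 1.00 ± 0.39 higher with estradiol (adjusted p = 0.858 by limma), with 2.05 and -0.06 within slides and 0.33 with normexp. The dimmer IL1A probe was 0.78 ± 0.35 higher (adjusted p = 0.879), with 1.48 and 0.09 within slides and 0.30 with normexp. For the interaction that count was 0 of 15 (7.21%). For the interaction the smallest adjusted p of a member was 0.697, for IL1B (0.53 ± 0.25, with 0.56 and 0.51 within slides).

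Of the other genes of the cytokine pathways, taken from lists by role, none passed the adjusted threshold in any of the 7 comparisons. Among 9 measured cytokines and chemokines outside the 10, BCO against control gave 2 at an unadjusted p of 0.05 (7.17% of all probes), both lower: SPP1 (osteopontin, -0.53 ± 0.17) and IL12A, a subunit of interleukin 12 (-0.81 ± 0.27, adjusted p = 0.489 and 0.501). In estradiol+BCO against estradiol fetuses that count was 0 (7.73% of all probes). Among 6 receptors and adaptors it was 0 for BCO against control (7.17%) and 1 for estradiol+BCO against estradiol (7.73%), namely IFNAR1, a chain of the type I interferon receptor (0.34 ± 0.10, adjusted p = 0.424).

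Of 6 measured genes of inflammasome and transcription factors, NFKBIA had 0.93 ± 0.43 for BCO against control (adjusted p = 0.696, with 0.14 and 1.73 within slides). IRF1, an interferon-induced transcription factor, had 1.76 ± 0.55 for estradiol+BCO against estradiol (adjusted p = 0.427), with 1.89 and 1.64 within slides, so its difference was near the same on both. For BCO against control IRF1 had 1.03 ± 0.59 (adjusted p = 0.785, 0.59 and 2.04 within slides), with 1 BCO array left out for an outlier spot. FOS, an immediate early gene, had 1.10 ± 0.32 for estradiol+BCO against BCO (adjusted p = 0.295). The list's median was -0.01 for BCO against control and 0.62 for estradiol+BCO against estradiol.

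Of 9 measured cytokine target genes, SELP, the adhesion molecule P-selectin, had the largest difference relative to its error for BCO against control, 1.57 ± 0.47 (unadjusted p = 0.00445, adjusted p = 0.489), and within slides it was 0.28 and 2.87. ICAM1 had 1.88 ± 0.93 (adjusted p = 0.715), with 0.43 and 3.32 within slides. In estradiol+BCO against estradiol fetuses complement C3 was lower, -0.52 ± 0.16 (adjusted p = 0.427), with -0.63 and -0.40 within slides. The list's median was -0.02 for BCO against control and 0.13 for estradiol+BCO against estradiol.

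Of the microglia and leukocyte markers, 8 of 24 fixed were on the array and 7 were tested, and CD4 was at background on every array. Their summed signal was 1.16 to 1.78 times the 75th percentile in estradiol+BCO fetuses, 0.879 to 1.25 in BCO fetuses, 1.22 to 1.40 in estradiol fetuses and 1.13 to 1.49 in control fetuses. The estradiol+BCO and BCO fetuses thus overlapped. ITGB2, the leukocyte integrin, was by far the brightest of these genes (mean log2 signal -0.20, with CD14 next at -2.98), so the sum largely follows it. Of the 7 tested, 5 were higher and 2 lower in estradiol+BCO than in BCO fetuses, and 1 had an unadjusted p under 0.05 (9.45% of all probes). That was ITGB2, at 0.56 ± 0.17 (adjusted p = 0.312). The part of these cells in the cytokine differences was not tested.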

How the data were processed

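RNA from the hypothalamus of 16 fetuses was hybridised to 1-colour (Cy3) Agilent sheep arrays. The deposited scanner files hold intensity values per spot, background-subtracted by Feature Extraction 10.1.1.1, per the file headers. The deposited value table holds log2 values that equal log2 processed signal minus each array's median of all features (largest difference 5e-09). Log2 processed signal minus the array's 75th percentile was used here, with outlier spots left out and spots of a probe averaged. Probes well above background on at least 4 of 16 arrays (12937) were fitted with limma 3.58.1 in R 4.3.3 as 4 group means, with Benjamini-Hochberg adjustment over all of them. Named genes were all members, the 3 list genes with the smallest p per comparison, and the 3 genes most like each member over 16 arrays among those well above background on at least 12, of which 1 is not reported here. Members and lists were chosen with earlier results of these data known. The 29 alternatives covered background correction, scaling, filters, slide, replicate block and leaving out arrays. Replicate numbers were not treated as pairs in the main fit. Of 24 same-number pairs, 20 had r over 0.1, and 3 of 16 arrays correlated best with their own number. Arrays of the same number also share a slide, so these values do not settle whether the numbers mark pairs. On data simulated for estradiol+BCO against estradiol (12937 probes), 62% of log2 changes of 1 and 89% of changes of 2 were recovered, with 13 false calls. The changed probes were drawn at random from all tested probes, with independent normal noise and no slide difference. These rates do not carry over to IL1A, IL1RN, CXCL10 and CXCL8, whose brightest probes had SDs within groups at the 93.8, 94.5, 99.4 and 99.7 percentile. The number of arrays limits the precision.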

Additional observations from a re-analysis of the deposited data

How the results depend on the processing

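No member probe passed an adjusted p of 0.05 in any of the 7 comparisons under any of the 29 alternatives. Of 2979 member differences recomputed, 35 moved by more than the spread between fetuses and 179 changed sign: 5 and 11 with normexp background correction, and 15 and 26 with each slide alone. The count of all probes passing was 1 for the interaction, 0 under quantile normalization, median centring, no filter, slide 1 alone, slide 2 alone and the deposited value table, 3 with slide as a block, and 0 to 3 leaving out 1 array (3 without BCO fetus 1). For estradiol+BCO against estradiol it was 1, and 0 under median centring, each slide alone, the value table, and a fit of those groups alone, and 0 to 1 leaving out 1 array. For BCO against control it was 0, 14 on slide 2 alone, 3 in a fit of those groups alone, and 0 to 6 leaving out 1 array (6 without BCO fetus 2). For estradiol+BCO against BCO it was 0, 13 on slide 2 alone, and 0 to 5 leaving out 1 array (5 without BCO fetus 1). For estradiol against control it was 0, and 1 on slide 2 alone. For estradiol averaged over occlusion it was 0, 1 on slide 1 alone, and 0 to 1 leaving out 1 array (1 without estradiol fetus 4). With the replicate number as a block, the count was 3 for the interaction and 0 for estradiol+BCO against estradiol. A slide alone has 2 arrays per group, and the cause of the other differences was not tested. Probes near background limit IL1RN and the third IL18 probe most.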
